A study of Mus musculus with 4 samples.

Results

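Transcripts of 9 genes that carry the switch of cells from respiration to anaerobic glycolysis under low oxygen were followed through the cells of mouse heart grafts. The genes were Slc2a1, Hk2, Pfkfb3, Ldha, Pdk1, Bnip3, Egln3, Ankrd37 and Hif1a, taken by symbol, and all 9 were among the 30905 genes of the matrix. The single-cell RNA libraries came from 4 grafts harvested on day 5 after transplantation into the abdomen of a C57BL/6J recipient, 2 of them allogeneic (Balb/C donor hearts) and 2 syngeneic (C57BL/6J donor hearts), all from male mice. The cells of the 4 grafts were merged in 1 matrix, in which a suffix from 1 to 4 on the cell barcode names the library. No label or file used here says which suffix belongs to which graft, so no allogeneic and syngeneic cells were compared, the libraries are called library 1 to 4, and levels are given without a test. Graft tissue was digested with collagenase and dispase at body temperature, so every level is that of a dissociated cell.

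Cells short of oxygen stop degrading the HIF-1 alpha protein, the product of Hif1a, which then pairs with ARNT and switches on genes with a core motif that reads ACGTG or, as a variant, GCGTG. Its oxygen-dependent removal is carried out by prolyl hydroxylases, one of which, Egln3, is itself a target of the factor, as is the small ankyrin repeat protein gene Ankrd37. The targets Slc2a1 (the glucose transporter GLUT1), Hk2 (hexokinase, which traps glucose in the cell), Pfkfb3 (whose product makes a fructose bisphosphate that activates phosphofructokinase) and Ldha (lactate dehydrogenase A) feed glucose to lactate. Pdk1 holds back the breakdown of pyruvate inside mitochondria by phosphorylating pyruvate dehydrogenase, and Bnip3 marks mitochondria for removal. Immune cells also raise several of these genes when activated, in normal oxygen. HIF-1 alpha is controlled mostly as a protein, which was not measured here.

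All 9 are protein-coding genes in GENCODE on GRCm38, the build that mm10 names. Slc2a1 lies at chr4:119108711-119137983, Hk2 at chr6:82725025-82774454, Pfkfb3 at chr2:11471433-11554077, Ldha at chr7:46841475-46855627, Pdk1 at chr2:71873224-71903858, Bnip3 at chr7:138890836-138909519, Egln3 at chr12:54178981-54203860, Ankrd37 at chr8:45996902-46005707 and Hif1a at chr12:73901375-73947530. Promoter windows of 300 bases, 250 before and 50 after each RefSeq start, were searched on both strands for the core ACGTG and for its variant. The core was found in 9 of the 12 windows of these genes, which belong to 8 of the 9 genes, and in 19.6% of the 32851 windows of all genes. The variant was present in 32.4% of all windows, and either of them in 43.8%. A core preceded by C is found on both strands, and the matches then overlap and count as 2. Pdk1 was the gene without the core in its windows, and it held the variant at 2 places. The windows of Bnip3, Ldha, Slc2a1 and Egln3 are shown because these genes stood together in the granulocyte-like cells described below, and because their motifs lie differently. Capitals mark each base of the core or its variant on either strand, and all sequences run 5′ to 3′ on the gene's own strand in GRCm38.p6.
Bnip3, chr7:138909457-138909756, minus strand: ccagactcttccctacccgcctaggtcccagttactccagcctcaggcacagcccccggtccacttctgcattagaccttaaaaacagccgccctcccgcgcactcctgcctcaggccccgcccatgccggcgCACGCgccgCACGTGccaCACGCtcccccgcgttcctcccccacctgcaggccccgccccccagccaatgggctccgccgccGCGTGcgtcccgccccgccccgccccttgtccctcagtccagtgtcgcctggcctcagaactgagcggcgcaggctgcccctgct
Ldha, chr7:46845554-46845853, plus strand: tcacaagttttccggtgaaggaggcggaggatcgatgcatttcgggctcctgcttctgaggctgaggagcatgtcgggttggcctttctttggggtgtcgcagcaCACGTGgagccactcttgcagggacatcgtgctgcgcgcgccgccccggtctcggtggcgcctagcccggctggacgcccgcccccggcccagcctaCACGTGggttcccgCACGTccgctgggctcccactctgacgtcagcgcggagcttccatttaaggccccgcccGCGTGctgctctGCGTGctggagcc
Slc2a1, chr4:119108495-119108794, plus strand: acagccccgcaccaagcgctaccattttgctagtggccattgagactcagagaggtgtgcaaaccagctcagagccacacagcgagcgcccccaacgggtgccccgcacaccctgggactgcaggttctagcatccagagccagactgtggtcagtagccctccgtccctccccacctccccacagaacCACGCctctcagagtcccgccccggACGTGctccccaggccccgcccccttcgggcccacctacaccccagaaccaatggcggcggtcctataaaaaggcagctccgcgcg
Egln3, chr12:54203825-54204124, minus strand: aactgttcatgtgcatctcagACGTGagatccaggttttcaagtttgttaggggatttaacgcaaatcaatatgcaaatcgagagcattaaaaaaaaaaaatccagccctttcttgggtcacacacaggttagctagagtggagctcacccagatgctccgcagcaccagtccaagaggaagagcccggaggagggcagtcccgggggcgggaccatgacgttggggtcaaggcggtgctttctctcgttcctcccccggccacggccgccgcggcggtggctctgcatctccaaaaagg
The Ldha window held 5 matches of the core, the Bnip3 window 2, and the Slc2a1 and Egln3 windows 1 each. The match in Egln3 began 229 bases before the start and the match in Slc2a1 36 bases before it.

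The 4 libraries held between 13112 and 13907 barcodes each and between 96020294 and 166079145 unique molecular identifiers (UMIs, counted transcript molecules), and 308 barcodes occurred in more than 1 library. Of 53824 barcodes, 44626 passed the filters of the study and 42395 remained after removal of marked doublets. Clustering, without the 9 genes or the pathway lists named further on, gave 27 clusters, of which 19 carried enough markers to be placed in 10 classes, while 9819 cells in the other clusters stayed unnamed. Endothelial-like cells (11179) and macrophage-like cells (7436) were the largest classes. Libraries did not contribute evenly: 2747 of 3105 granulocyte-like cells came from library 2, and 5786 of 7436 macrophage-like and 1409 of 1869 T/NK-like cells came from library 4. A cell type and a library therefore cannot be told apart for several of the levels below, and values within a library are given for some levels of the 9 genes. A level is the sum of a gene's UMIs over a group of cells per 1000000 non-mitochondrial UMIs of the same cells (CPM), with an exact Poisson 95% interval that covers counting error only. UMIs were counted at the 3′ end and are not per length, so levels are compared between cells and not between genes.

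In levels pooled over libraries, granulocyte-like cells, marked by S100a8, S100a9, Retnlg and Csf3r, stood highest for 4 of the 9 genes. Egln3 was 15.4-fold, Bnip3 8.71-fold, Slc2a1 5.50-fold, Pfkfb3 3.73-fold and Ldha 2.52-fold higher there than the median of the other classes, with 10 CPM added to both levels. Thus 5 of 9 genes were at least 2-fold higher, against 8.26% of the 11790 genes measured at 10 CPM or more in a class. Macrophage-like cells had 3 such genes (Slc2a1, Bnip3 and Hk2, background 9.54%), and cardiomyocyte-like cells 2 (Bnip3 and Pdk1, background 11.8%). Endothelial-like cells had Pfkfb3 alone (background 12.8%), fibroblast-like cells Hk2 alone (14%), and T/NK-like cells Ldha alone (10.3%), which are shares near those of all genes. Pfkfb3 alone was also called in pericyte-like (15.2%) and dendritic-like cells (9.57%), and no gene was in smooth muscle-like (13.8%) or B-like cells (7.79%). In cardiomyocyte-like cells Slc2a1, Hif1a and Pfkfb3 were at least 2-fold lower, where 12.7% of all genes were. Hk2 was at least 2-fold lower in endothelial-like (background 2.13%) and pericyte-like cells (1.64%), and Pfkfb3 in fibroblast-like (3.21%), smooth muscle-like (3.62%) and T/NK-like cells (7.75%). In B-like cells Hk2 and Ldha were (5.05%). None of the 9 was at least 2-fold lower in granulocyte-like (20.1%), macrophage-like (5.46%) or dendritic-like cells (4.57%). The median fold of the 9 genes was 2.52 in granulocyte-like cells, where that of all genes was 0.748, and 1.94 in macrophage-like cells, where that of all genes was 0.941.

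**Figure D1:**
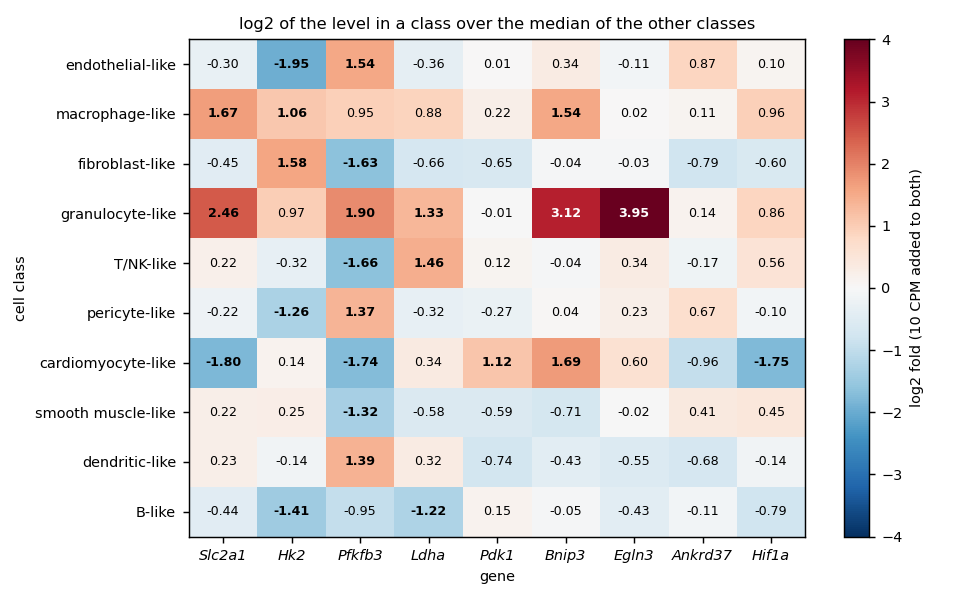
log2 of the level of each gene (columns) in each cell class (rows) over the median of the other classes, with 10 CPM added to both. Bold values are at least 2-fold in either direction. The largest value is that of Egln3 in granulocyte-like cells (3.95), and no class is high for all 9 genes.

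Hif1a, the transcript of the factor itself, was present in every class. Its level was 333 CPM (interval 330 to 337) in macrophage-like cells and 312 (302 to 321) in granulocyte-like cells, followed by 251 in T/NK-like, 231 in smooth muscle-like, 179 in endothelial-like, 167 in pericyte-like, 161 in dendritic-like, 115 in fibroblast-like, 99.5 in B-like and 46.0 (37.7 to 55.6) in cardiomyocyte-like cells. The neighbours pericyte-like and dendritic-like overlapped in their intervals, as did fibroblast-like and B-like, and the span from the highest to the lowest class was wide. Egln3, the oxygen-sensing prolyl hydroxylase that is induced by the factor it helps to remove, had a far narrower pattern. It reached 254 CPM (245 to 263) in granulocyte-like cells and lay between 1.87 (dendritic-like) and 15.9 (cardiomyocyte-like, 11.2 to 21.9) in the other 9 classes. Only the granulocyte-like level thus stood clear in these pooled values, to which library 2 gave most of the granulocyte-like cells. A UMI of Egln3 was found in 36.8% of granulocyte-like cells and in 10.6% or fewer of the cells of each other class, at a median depth of 3729 UMIs in granulocyte-like cells and 8441 in the T/NK-like cells with the 10.6%. Pooled over libraries, Ankrd37 was highest in the vessel wall. Its level was 38.5 CPM (37.3 to 39.8) in endothelial-like, 32.4 (29.8 to 35.2) in pericyte-like and 25.2 (22.0 to 28.7) in smooth muscle-like cells, and these 3 intervals did not overlap. It was 19.3 in granulocyte-like, 18.7 in macrophage-like, 16.6 in B-like, 15.6 in T/NK-like, 7.89 in dendritic-like, 6.58 in fibroblast-like and 4.73 in cardiomyocyte-like cells. The order within the vessel wall differed between libraries. In library 1 Ankrd37 was 19.2 CPM in endothelial-like, 24.5 in pericyte-like and 31.6 in smooth muscle-like cells, the reverse of the pooled order. In the same classes it was 54.1, 41.1 and 32.1 in library 3. In library 2 it was 35.4, 32.0 and 15.6, with 19.6 in granulocyte-like cells.

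The genes of glucose entry were each high in a different set of cells. Slc2a1 was 254 CPM (245 to 262) in granulocyte-like and 143 (140 to 145) in macrophage-like cells. All other classes lay between 30.8 and 46.3 CPM except cardiomyocyte-like cells, in which 14 UMIs gave 6.02 CPM (3.29 to 10.1). In single libraries these few UMIs gave 1.17 CPM in library 1, 37.9 in library 2 and 8.12 in library 3. The median of the other classes of library 2 was 64.4 CPM. Cardiomyocytes take up glucose chiefly through another transporter, Slc2a4. Hk2 was highest in fibroblast-like cells, with 156 CPM (153 to 159), then 106 in macrophage-like and 99.2 (93.8 to 104.8) in granulocyte-like cells, whose intervals overlapped. It was 56.4 in smooth muscle-like, 51.2 in cardiomyocyte-like, 45.7 in dendritic-like, 38.8 in T/NK-like, 15.5 in pericyte-like, 12.98 in B-like and 5.86 (5.38 to 6.37) in endothelial-like cells, the lowest of the classes. Pfkfb3 had a pattern unlike Hk2. It was 151 CPM (144 to 158) in granulocyte-like, 115 (113 to 117) in endothelial-like, 103 in dendritic-like, 102 in pericyte-like and 73.7 in macrophage-like cells, and between 15.05 and 33.2 CPM in the rest. In pooled levels, endothelial-like cells thus combined the second highest Pfkfb3 with the lowest Hk2 of the 10 classes. These ranks differed within libraries. Their Pfkfb3 was the highest in libraries 1 and 3, at 279 and 73.5 CPM. In library 2 it was 50.5, below granulocyte-like (160) and macrophage-like cells (87.0). Their Hk2 was the lowest in library 1, at 2.68 CPM. In library 2 it was 10.98 against 8.16 in T/NK-like cells, and in library 3 it was 2.88 against 2.36 in B-like cells.

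Ldha, which turns pyruvate to lactate, was 1325 CPM (1311 to 1340) in T/NK-like and 1209 (1190 to 1228) in granulocyte-like cells, and 882 in macrophage-like cells. The levels of the remaining classes ran from 605 (574 to 637) in cardiomyocyte-like and 596 (574 to 618) in dendritic-like cells, which overlapped, down to 250 (225 to 278) in B-like cells. Pdk1, which phosphorylates pyruvate dehydrogenase, was highest in cardiomyocyte-like cells, with 54.6 CPM (45.5 to 65.0) from 127 UMIs. In the other classes Pdk1 lay between 7.89 (dendritic-like) and 24.7 CPM (macrophage-like). Bnip3, the mitophagy receptor, was 299 CPM (290 to 309) in granulocyte-like, 104 (91.8 to 118) in cardiomyocyte-like and 93.5 (91.7 to 95.3) in macrophage-like cells, of which the last 2 overlapped, and 34.9 or lower in the other 7 classes. After thinning each cell to 1000 UMIs, a granulocyte-like cell held on average 1.598 of the 9 genes, a macrophage-like cell 1.21, a T/NK-like cell 0.936 and a B-like cell 0.382. These means are pooled and differed by library in the subclusters described below. Granulocyte-like means were 1.03 (subcluster 2) to 3.21 (subcluster 3) in library 2. In subcluster 5 they were 0.888 in library 1 and 0.746 in library 3. Macrophage-like subcluster 3 had 0.462 in library 1 and 0.472 in library 3.

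**Figure D2:**
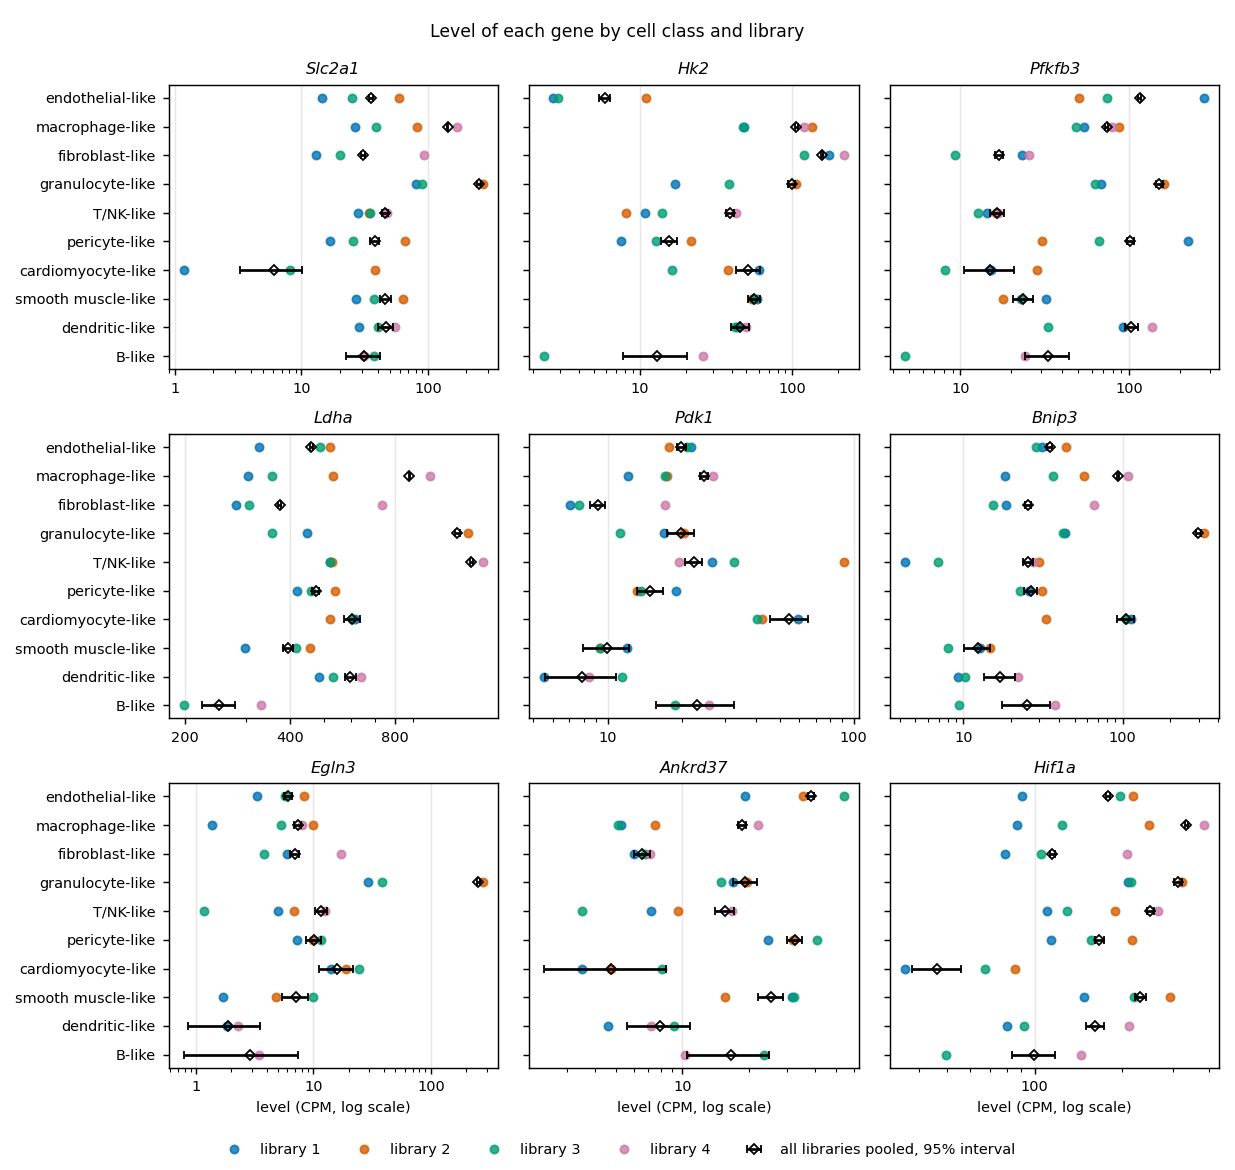
Level of each gene (CPM, log axis) in each cell class. Open diamonds with bars are all libraries pooled with the Poisson 95% interval, coloured points are single libraries with at least 50 cells of the class, and levels of 0 are not drawn. Granulocyte-like cells of library 2 lie apart from those of libraries 1 and 3 for Egln3 and Bnip3, and library 1 lies apart for Pfkfb3 in endothelial-like and pericyte-like cells.

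The folds were recomputed within single libraries, over the classes with at least 50 cells in the library. In library 2, 6 of the 9 genes were at least 2-fold higher in granulocyte-like cells than the median of the other 6 classes of that library (Egln3, Bnip3, Pfkfb3, Slc2a1, Hk2 and Ldha), where 9.15% of all genes were. In library 3, 4 genes were (Egln3, Slc2a1, Pfkfb3 and Bnip3, background 9.72%), with folds between 2.07 and 3.18, and in library 1 there were 3 (Slc2a1, Egln3 and Hif1a, background 9.31%). In libraries 1 and 3 the class stayed highest for Egln3 and Slc2a1, but not for Bnip3 and Pfkfb3. For Egln3 this order rests on few UMIs and is given without intervals. Cardiomyocyte-like cells came next with 14.1 and 24.4 CPM, and that class held 37 UMIs of Egln3 in all. The granulocyte-like levels of these libraries came from 97 and 255 cells. Bnip3 was 113 and 106 CPM in cardiomyocyte-like cells of libraries 1 and 3, against 43.5 and 42.4 in granulocyte-like cells. Pfkfb3 was 279 and 73.5 in endothelial-like and 223 and 66.3 in pericyte-like cells, against 67.6 and 62.4 in granulocyte-like cells. Egln3 in granulocyte-like cells was 277 CPM in library 2, 38.7 in library 3 and 29.0 in library 1. Bnip3 was 327, 42.4 and 43.5 CPM and Ldha 1297, 355 and 447 CPM in the same libraries. The granulocyte-like cells of library 2 were therefore higher than those of libraries 1 and 3, which lay close together. The cells of library 2 were mostly in cluster 6 (2085 cells) and those of libraries 1 and 3 in cluster 15 (87 and 251 cells). Within cluster 15, Egln3 was 338 CPM in the 662 cells of library 2, 34.8 in library 1 and 38.0 in library 3, and Bnip3 was 673, 46.4 and 40.5 CPM. The unnamed cluster 19, with 767 of its 770 cells from library 4, carried 5 of 6 granulocyte markers but had none of them among its 10 leading genes. Its Egln3 was 39.8 CPM, its Bnip3 66.6, its Ldha 349 and its Slc2a1 183. Without library 2, 2 of the 9 genes were at least 2-fold higher in the class. Macrophage-like cells had 0 such genes without library 4 and 5 without library 2, which held 150 of these cells. Cardiomyocyte-like cells had 1 without library 1, and endothelial-like cells 2 without library 1 or without library 4. No cell of library 4 was named endothelial-like, so without it only the median of the other classes changed for them. Cluster 11, with 1624 of its 1641 cells from library 4, matched the endothelial list best, with 3 of 7 markers. It stayed unnamed because it was shallow and had none of these markers among its 10 leading genes. For the counts without a library, the share of all genes was not computed. The log2 fold of Ldha in T/NK-like cells was 0.18 without library 4, and that of Hif1a in macrophage-like cells -0.08. Without library 2 the log2 folds of Bnip3 and Pfkfb3 in granulocyte-like cells were 0.61 and 0.83, and without library 1 that of Pdk1 in cardiomyocyte-like cells was 0.82. Hk2 in fibroblast-like cells was high in each of the 3 libraries with at least 50 cells of the class. It was 175 CPM in library 1, 120 in library 3 and 217 in library 4. These levels were 4.61-fold, 4.94-fold and 4.06-fold above the median of the other classes of the library. Bnip3 in cardiomyocyte-like cells was 113 CPM in library 1 and 106 in library 3, and 33.1 in library 2. The library 2 value rests on few UMIs, from 163 cells with a median depth of 825 UMIs. That depth was 1366 in library 1 and 1526.5 in library 3.

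Granulocyte-like cells of library 2 were not alike, and the highest levels stood in 1 set of them. Reclustering the class, again without the 9 genes and the pathway lists, set apart subcluster 3, which held 618 cells, all from library 2. Its leading genes were Ero1l (an oxidase of the endoplasmic reticulum), Bnip3, Cldn1 and Higd1a, and it was compared within library 2 with the 1685 cells of subclusters 1 and 2 after these values had been seen, as was every comparison of clusters or subclusters that follows, so these are descriptions. Bnip3 was 1214 CPM (1170 to 1259) in subcluster 3 and 87.4 (81.1 to 94.0) in subclusters 1 and 2, a 12.6-fold difference. Hk2 was 337 against 40.6 CPM, Ldha 3763 against 612, Egln3 739 against 152, Slc2a1 659 against 166, Pdk1 50.02 against 10.8 and Pfkfb3 274 against 128. These 7 genes were at least 2-fold higher, where 7.37% of the 5645 genes measured were. Hif1a itself was 357 CPM (334 to 382) against 308 (296 to 320), and Ankrd37 33.5 (26.5 to 41.7) against 15.1 (12.6 to 18.0), a fold of 1.73 with the added 10 CPM. The transcript of the factor thus differed by 1.16-fold where that of Bnip3 differed by 12.6-fold. The median depth was 3644 UMIs in subcluster 3 and 4507 in the other 2, so the cells with the higher levels were the shallower ones.

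**Figure D3:**
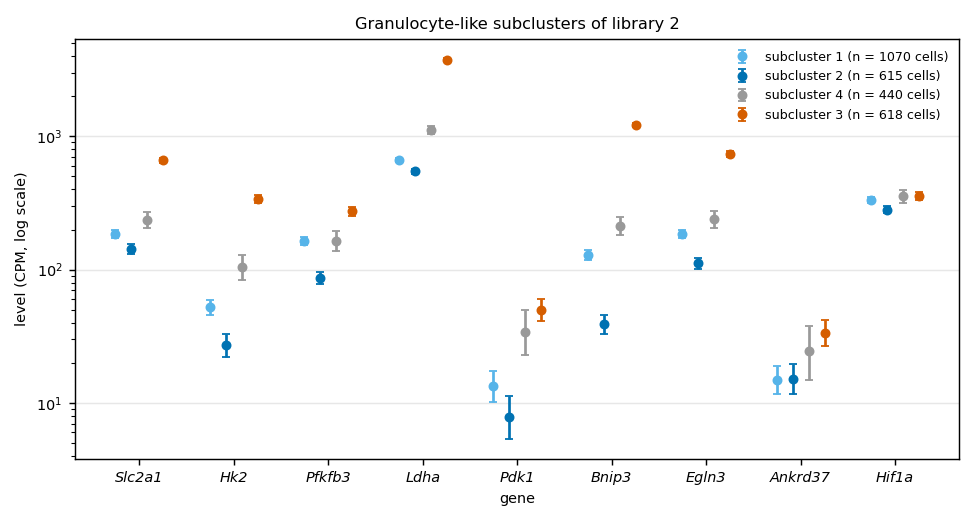
Level of each gene (CPM, log axis) in granulocyte-like subclusters 1 to 4 of library 2, with Poisson 95% intervals. Subcluster 3 lies above the other 3 for Slc2a1, Hk2, Pfkfb3, Ldha, Bnip3 and Egln3, and its interval overlaps that of subcluster 4 for Pdk1, Ankrd37 and Hif1a.

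Most glycolysis genes and other hypoxia targets measured were higher with them in subcluster 3. Of 14 glycolysis genes measured there, 10 were at least 2-fold higher, against the 7.37% of all genes measured, and none lower. Tpi1 (triose phosphate isomerase) was 1175 CPM against 180, Pfkl 489 against 82.3 and Pfkp 601 against 115, the latter pair being subunits of phosphofructokinase. Of 14 other hypoxia targets 13 were at least 2-fold higher (the same 7.37% of all genes), led by Ero1l with 2048 against 139 CPM, Higd1a (a mitochondrial protein) with 985 against 69.9 and Fam162a with 741 against 68.6. Of 6 measured genes that regulate the factor, 2 were at least 2-fold higher, Egln1 and Cited2 (again 7.37% of all genes). Egln1, the main oxygen sensor among the prolyl hydroxylases, was 352 CPM against 50.1. Of 3 pyruvate dehydrogenase and fructose bisphosphate genes measured, 0 were at least 2-fold higher. These examples were named after their values were seen. The difference was also seen cell by cell. After thinning to 1000 UMIs, 39.0% of the 597 thinned cells of subcluster 3 had a UMI of 4 or more of the 9 genes, against 3.44% in subcluster 1 and 1.67% in subcluster 2, and 1.68% of them had none, against 26.9% and 33.1%. Subcluster 3 made up 1.46% of all cells kept and 0.554% of all their UMIs, and it held 24.0% of the Egln3, 11.5% of the Bnip3 and 4.43% of the Slc2a1 UMIs. Subcluster 4 of library 2 lay between, with Bnip3 at 214 CPM, but its median depth was 1080 UMIs over all its cells and haemoglobin and endothelial genes were among its leading genes. In subcluster 5, from libraries 1 and 3, Bnip3 was 55.8 and 38.6 CPM and Egln3 41.8 and 38.6.

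**Figure D4:**
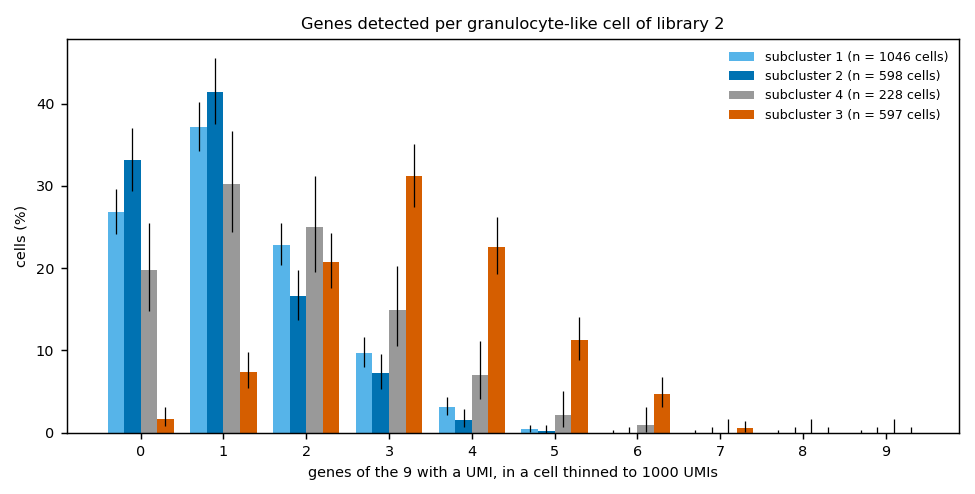
Share of granulocyte-like cells of library 2 (vertical axis, percent) by how many of the 9 genes had a UMI after thinning to 1000 UMIs (horizontal axis), with exact binomial 95% intervals. Subcluster 3 peaks at 3 genes (31.2% of its cells), the other 3 subclusters at 1 gene.

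Cluster 14, a set of myeloid cells, was also high for several of the genes. It held 1039 cells, 850 of them from library 2, was led by Arg1, Ccl24 and Ccl9 and stayed unnamed, because the list it matched best, that of platelets, had only 2 of 5 markers in it. Within library 2 it was set beside cluster 10, the macrophage-like cells of that library (150 cells), again after the values were seen. Egln3 was 65.5 CPM (61.1 to 70.1) in cluster 14 and 9.88 (6.12 to 15.1) in cluster 10. Ankrd37 was 46.6 against 7.53 CPM, Slc2a1 248 against 81.9, Bnip3 169 against 56.9, Ldha 1408 against 532 and Hif1a 583 against 248. These 6 of 9 genes were at least 2-fold higher, where 3.72% of 7536 genes were. Hk2 was 116 against 135 CPM, Pfkfb3 116 against 87.0, and Pdk1 29.8 against 17.4. Vegfa, the angiogenic factor, was 292 CPM against 14.6. In contrast with granulocyte-like subcluster 3, Hif1a itself stood higher and Hk2 did not. Granulocyte transcripts made up 0.553% of the UMIs of cluster 14 in library 2 and 0.114% of those of cluster 10, and their part in the difference was not tested. In library 3, the 73 cells of cluster 14 had Slc2a1 at 104.5 CPM and Hif1a at 277, against 37.0 and 122 in macrophage-like subcluster 3 (led by Fcrls, Gdf15 and Ms4a7), and these 2 of 9 genes were at least 2-fold higher where 5.50% of all genes were. Over subclusters 1, 2, 4, 5 and 6 of the macrophage-like cells, nearly all from library 4, Slc2a1 lay between 138 and 224 CPM, Hif1a between 311 and 449 and Ldha between 731 and 1068. The 182 cells of subcluster 9, led by Arg1 and Fn1, had the highest Bnip3 (164 CPM), Egln3 (26.5), Pdk1 (39.1) and Ldha (1279) of the 12 macrophage-like and dendritic-like subclusters.

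Pfkfb3 in endothelial-like cells followed another division. In library 1 it was 355 CPM (346 to 365) in subcluster 1, led by Cxcl9, Ifit1 and haemoglobin genes, and 109 (99.02 to 119) in subcluster 2, led by Aplnr. In library 3 the same subclusters had 184 (167 to 203) and 18.98 CPM (16.02 to 22.3). Of the 7 genes measured at 10 CPM or more, no other was 2-fold higher in subcluster 1 in either library, where 2.51% and 3.22% of all genes were. Slc2a1, for example, was 13.4 against 12.04 CPM in library 1. All 10 immediate early genes measured (Fos, Jun, Egr1 and others, which are switched on within minutes of a stimulus, dissociation included) were at least 2-fold higher in subcluster 1 of library 1, and 9 of 10 in library 3. Immediate early transcripts took 3.02% of the UMIs of subcluster 1 and 0.659% of those of subcluster 2 in library 1. Over the 17 profiles of endothelial-like subcluster by library, Pearson's r between the share of immediate early transcripts and log2 Pfkfb3 (10 CPM added) was 0.82, as a description of profiles that share libraries. Hk2 gave -0.21 over the same profiles. The part of dissociation in the Pfkfb3 levels was not tested. The unnamed cluster 11, from library 4, led by Ubd, Gbp2b and Cxcl9 and carrying 3 of 7 endothelial markers, had 304 CPM of Pfkfb3 (293 to 314) at an immediate early share of 0.745% and a median depth of 1853 UMIs.

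**Figure D5:**
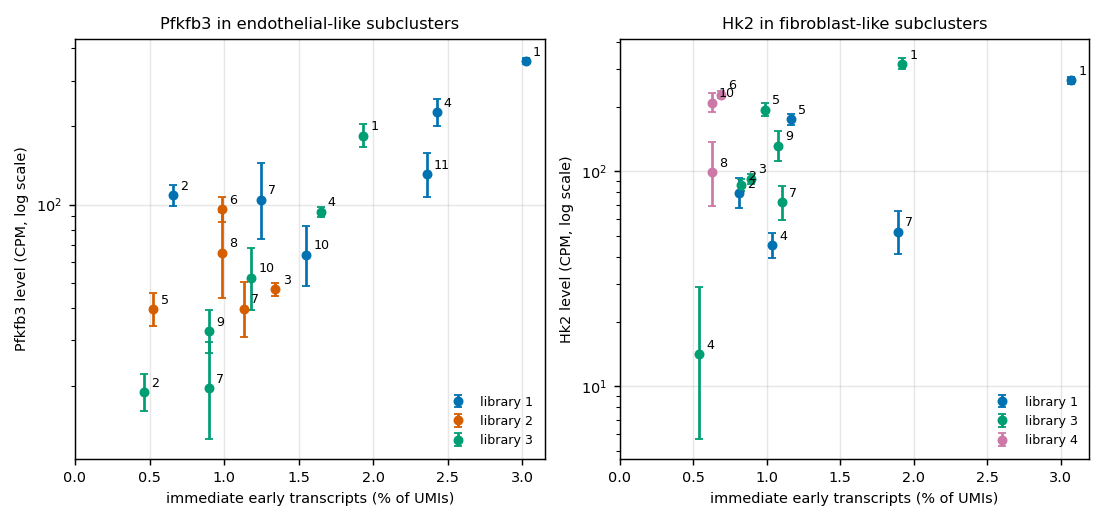
Level (CPM, log axis, Poisson 95% interval) of Pfkfb3 in endothelial-like subclusters and of Hk2 in fibroblast-like subclusters against the share of immediate early transcripts in the same cells (percent of UMIs). Each point is 1 subcluster (its number) in 1 library (colour), and the 17 endothelial points have r = 0.82 and the 15 fibroblast points r = 0.38.

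Hk2 divided the fibroblast-like cells. In library 1 it was 265 CPM (256 to 274) in subcluster 1 and 45.4 (39.5 to 52.0) in subcluster 4, both with the resting markers Clec3b, Gsn, Scara5 and Smoc2. In library 3 the levels were 316 (298 to 335) and 14.1 (5.67 to 29.1). Of the genes measured at 10 CPM or more, 6 in library 1 and 7 in library 3, Hk2 was the 1 that differed 2-fold, where 1.69% and 2.92% of all genes were at least 2-fold higher. Ldha was 333 against 199 CPM in library 1 and 294 against 208 in library 3. Immediate early genes differed here too, with 9 of 10 at least 2-fold higher in subcluster 1 in library 1 and 10 of 10 in library 3. Over all 15 fibroblast-like profiles r was 0.38, and subcluster 6 of library 4 had 228 CPM of Hk2 at an immediate early share of 0.689%. Activated fibroblast-like cells, with Postn and Cthrc1, had 92.5 CPM of Hk2 in library 3. The unnamed cluster 18, from library 2, led by Prg4, Cxcl5 and Ptx3, had 229 CPM of Hk2 and 1205 of Ldha, with Slc2a1 at 119 and Bnip3 at 16.2.

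Several smaller sets of cells stood out for single genes. Dendritic-like subcluster 12, with Ccr7 and Fscn1, which mark dendritic cells that move to lymph nodes, had 463 CPM of Pfkfb3 in library 4, against 50.1 in dendritic-like subcluster 7 (Cd209a and Xcr1). Its Hk2 was 3.27 against 92.8 CPM, its Ldha 222 against 797, its Slc2a1 21.3 against 97.1 and its Bnip3 14.7 against 46.2. Thus 1 gene was at least 2-fold higher, where 8.70% of all genes were, and 4 at least 2-fold lower, where 12% of all genes were, in only 54 cells. T/NK-like subcluster 5, led by Tnfrsf4, Izumo1r and Foxp3, had 712 CPM of Hif1a (673 to 753) in library 4, against 255 in the CD8 T-like subclusters 2 and 4. Egln3 was 37.4 against 12.6 CPM, and these 2 of 9 genes were at least 2-fold higher where 7.32% of all genes were. Ldha in library 4 was 1791 CPM in subcluster 2, led by cell cycle genes, 1486 in subcluster 4, led by Ifng and Ccl3, 1394 in subcluster 5 and 905 in the NK-like subcluster 3. Pdk1 in T/NK-like cells was 91.1 CPM in library 2 and between 19.5 and 32.5 in the others, and the cells of library 2 belonged mostly to subcluster 6, among whose leading genes were Fabp4, S100a8 and Retnlg, genes of other cell types.

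Cluster 16, with 993 cells of library 2, was placed among the endothelial-like cells on 3 of 7 endothelial markers. Of its 10 leading genes, Timp4 also led the endothelial-like cluster 3, whereas Prg4, Cxcl5 and Csf2 led the unnamed cluster 18, which carried 2 of 6 fibroblast markers. Its Hk2 was 70.7 CPM (62.4 to 79.8) against 4.02 (3.35 to 4.78) in cluster 3 of the same library. Egln3 was 44.1 against 4.05 CPM, Bnip3 106 against 36.5, Slc2a1 127 against 51.3 and Ldha 980 against 469, and 5 of 9 genes were at least 2-fold higher where 9.84% of all genes were. Granulocyte transcripts made up 2.19% of the UMIs in cluster 16 and 0.123% in cluster 3, and their part in these levels was not tested. Without cluster 16, endothelial-like cells still had Pfkfb3 as the only gene at least 2-fold higher. In cluster 26, unnamed, with 163 cells led by the stressed cardiomyocyte genes Acta1, Ankrd1 and Nppa and nearly all from library 4, Bnip3 was 178 CPM (130 to 239), Egln3 71.3 (42.3 to 113) and Slc2a1 111. In the cardiomyocyte-like class, nearly all from libraries 1 to 3, those genes were at 104, 15.9 and 6.02 CPM, and since that class held 11 cells of library 4, cluster and library cannot be told apart.

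Levels also differed between libraries within a class. Of 76 pairs of gene and class at 10 CPM or more, 38 had a highest library at least 2-fold above the lowest, against 19.2% of all gene and class pairs. Without library 4 there were 23 of 65. Hif1a had such a span in 7 of 10 classes and Pdk1 in 1 of 7. No share of all genes was computed for the count without library 4 or for the counts of classes. Hif1a in endothelial-like cells was 90.1 CPM in library 1, 219 in library 2 and 197 in library 3, and in pericyte-like cells 114, 216 and 156. The endothelial-like cells of library 2 were in clusters 3 and 16 (3229 and 993 cells) and those of libraries 1 and 3 mostly in cluster 1 (3386 and 3022 cells), whereas pericyte-like cells of all libraries formed 1 cluster. In cluster 3 of library 2 alone Hif1a was 203 CPM, Slc2a1 51.3 and Pfkfb3 45.5. Library 1 was the lowest and library 2 the highest for Hif1a in all 7 classes with at least 50 cells in each of libraries 1 to 3. That order was kept in all 7 by 7 of 3954 genes (0.177%) and was counted after it was noticed. Slc2a1, which was below 10 CPM in a class and so not among the 3954, kept it in 6 of 7 classes, with 14.6, 59.2 and 24.9 CPM in endothelial-like and 16.8, 65.2 and 25.5 in pericyte-like cells of libraries 1, 2 and 3, and Ldha in 5. Libraries 3 and 4 both had at least 50 cells of 5 classes, and 6 of the genes were at 10 CPM or more in each class. Hif1a, Ldha, Bnip3, Hk2 and Pfkfb3 were higher in library 4 in all 5 classes and Slc2a1 in 4. Of the 5470 genes at that level, 15.5% were higher in all 5. Of the 3 genes below that level, Egln3 was higher in library 4 in 5 classes, and Pdk1 and Ankrd37 in 3. In the 106 B-like cells of library 3, Hk2 was 2.36, Pfkfb3 4.72 and Bnip3 9.44 CPM, which rest on few UMIs. Fibroblast-like cells of library 4 were mostly in cluster 22 (558 cells) and those of library 3 in clusters 12 and 4 (1398 and 594 cells). T/NK-like cells of these libraries also fell mostly in different subclusters. In macrophage-like cells Slc2a1 was 26.6, 81.9, 39.1 and 168 CPM and Ldha 304, 532, 355 and 1012 in libraries 1 to 4, but macrophage-like cells of library 4 were mostly in clusters 2 and 21 and those of libraries 1 to 3 in cluster 10. Pfkfb3 ran the other way in the vessel wall, with 279, 50.5 and 73.5 CPM in endothelial-like and 223, 30.3 and 66.3 in pericyte-like cells of libraries 1, 2 and 3. Immediate early transcripts were also highest in library 1 in those classes, at 2.44%, 1.18% and 1.30% of UMIs in endothelial-like and 2.86%, 1.34% and 1.48% in pericyte-like cells. Median depths of endothelial-like cells were 4774, 5833 and 7218 UMIs in the 3 libraries.

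The rest of the pathway was not even across classes in levels pooled over libraries. These list counts by class were not computed within single libraries. Most macrophage-like and T/NK-like cells came from library 4 and most granulocyte-like cells from library 2. For these classes, cell type and library therefore cannot be told apart in the counts that follow. Of 19 other glycolysis genes measured, 11 were at least 2-fold higher in macrophage-like cells, where 9.54% of all genes were (Hk3 267 CPM against a median of 4.04, Slc16a3 298 against 47.5, Tpi1 912 against 227), and Ldhb and Slc2a3 were at least 2-fold lower, where 5.46% were. In granulocyte-like cells 10 were higher, where 8.26% of all genes were (Slc16a3, the lactate exporter, 807 against 47.5, Slc2a3 126 against 7.04, Hk3 84.2 against 4.04), and Ldhb was lower (20.1%). In T/NK-like cells 8 were higher (Pgk1 550 against 171, Eno1 582 against 191, background 10.3%) and none lower (7.75%). In endothelial-like cells none was higher (12.8%) and 3 were lower (Tpi1, Slc16a3 and Gapdh, background 2.13%). Cardiomyocyte-like cells had 6 higher (background 11.8%), led by Ldhb, the heart form of lactate dehydrogenase (1672 against 16.4 CPM), and Pfkm, the muscle phosphofructokinase (181 against 4.40). Slc16a3, Eno1, Pfkp and Pgam1 were at least 2-fold lower there (12.7%), and the median fold of the 19 genes was 0.885, where that of all genes was 0.92. Of the 6 pyruvate dehydrogenase and fructose bisphosphate genes measured, Pdk4 (239 against 2.75), Pdk2 (138 against 5.05) and Pdha1 (412 against 52.3) were higher there, beside Pdk1, and Pdk3 was lower (5.16 against 22.0). Among the genes that regulate the factor, Epas1, which encodes HIF-2 alpha, was 675 CPM in endothelial-like, 917 in pericyte-like and 794 in smooth muscle-like cells, against a median of 54.4 in the other classes of each. Of 17 other hypoxia targets, 5 were at least 2-fold higher in endothelial-like cells (Adm 68.5 against 6.49, Ndrg1 198 against 55.7, P4ha2 32.7 against 3.55, and also Plod2 and Ddit4), where 12.8% of all genes were, and Fam162a was lower (2.13%). In fibroblast-like cells 6 were higher (14%) and none lower (3.21%), led by the collagen-modifying Plod2 (200.2 against 9.94), and Adm, P4ha2 and Plod2 were among those of both classes. Pericyte-like cells had 4 of the 5 that were higher in endothelial-like cells (Adm, Ndrg1, P4ha2 and Ddit4, background 15.2%). In macrophage-like cells Mif alone was higher (9.54%), and Ddit4, Bhlhe40 and Plod2 were lower (5.46%). T/NK-like cells had 2 higher (10.3%) and 1 lower (7.75%), and B-like cells 0 higher (7.79%) and 6 lower (5.05%). Cardiomyocyte-like cells had 3 higher (11.8%) and 4 lower (12.7%). Smooth muscle-like cells had 3 higher (13.8%) and 0 lower (3.62%), and dendritic-like cells 1 higher (9.57%) and 3 lower (4.57%). In granulocyte-like cells 5 were higher, where 8.26% of all genes were (Ero1l 502 against 36.4, Bnip3l 438 against 124, Bhlhe40 663 against 221, and also P4ha1 and Kdm3a), and Selenbp1 was lower (20.1%). P4ha1 was the 1 of these 5 that was also higher in fibroblast-like cells, and none was in endothelial-like or pericyte-like cells. The share of all genes that are higher in 2 such classes at once was not computed. The overlaps between classes given here are therefore listed without a reading.

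Across 31 profiles of class by library, the 9 genes did not follow a single pattern. The highest correlations of log2 levels were between Slc2a1 and Hif1a (r = 0.80) and between Bnip3 and Egln3 (r = 0.76), and the lowest was between Hk2 and Ankrd37 (r = -0.39), with profiles sharing libraries and depth. Egln3 was 277 CPM and Bnip3 327 in granulocyte-like cells of library 2, while Egln3 was 38.7 or lower in every other profile. The weight of that 1 profile in the r values of Egln3 was not tested. The genes most like each, among 7561, were Eno1 (r = 0.83), Slc16a3 and Ero1l for Slc2a1, Pgk1 (0.82), Higd1a and Gapdh for Ldha, and Egln3, Sod2 and Atp6v1e1 for Bnip3. Egln3 was closest to Rab44 (0.85), Ankrd22 and Stfa2, Hk2 to Nupr1 (0.79), Mmp19 and Ufsp2, and Pfkfb3 to Hlx (0.75), Myd88 and Klf6. Ankrd37 was closest to Tmod3 (0.79), Notch1 and B4galt3, Pdk1 to Patj (0.74), Dnaja2 and Entpd5, and Hif1a to Slc2a1, BC031181 and Pdcd10.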

How the data were processed

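Single-cell suspensions of the grafts were sequenced as 10x Chromium 3′ v3 libraries. The authors aligned the reads to mm10 with Cell Ranger and deposited 1 merged matrix of UMI counts per gene and cell, not normalized. The submitters' processing notes also name CASAVA 1.8 and Seurat. After the study's methods, cells with over 200 genes and under 20% mitochondrial UMIs were kept, mitochondrial genes were removed, and the 5% of cells with the highest simulated doublet scores, scored within each library, were left out. Counts were log-normalized, and 2000 variable genes, 10 principal components and 30 neighbours were used for Leiden clustering at resolution 0.8 (leidenalg 0.10.2, igraph 0.11.9, scikit-learn 1.9.0). The study kept fewer cells and named clusters differently, so class names here are rebuilt. A cluster was named from at least 3 detected markers (10% of cells, 2-fold above the mean of the other clusters). It stayed unnamed if it was shallow and had no marker of that list among its 10 leading genes. The same held if those leading genes included more markers of another list. The clustering, naming, doublet, level and interval steps were tested on simulated data. The 9 genes, the gene lists and the markers were chosen with earlier results of these data known. From each other list, levels are given for at most 3 higher genes a class, those with the largest fold. Further listed genes are named outside this rule, among them the lower ones. For likeness, profiles of at least 50 cells and genes of 50 CPM or more in a profile were used, and the 3 highest r are named. For shares, binomial limits at 95% are after Clopper and Pearson (exact). Intervals cover counting error only, and with libraries not tied to grafts no p-value was computed.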

Additional observations from a re-analysis of the deposited data

How the results depend on the processing

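No paired analysis was possible because no result comes from a test and the libraries are not tied to grafts. Each count of genes at least 2-fold higher, each gene's fold in its highest class and the count of library spans were recomputed under 20 other settings, of which 4 that rename or drop clusters were chosen after seeing the data. Of 140 recomputed counts, 127 stayed within 1.5 times, and of 180 recomputed folds 179 kept their direction and 166 their side of 2-fold. The share of all genes was not computed under these 20 settings. Macrophage-like cells had 6 genes at resolution 0.4, 5 at resolution 1.6, 6 with 20 principal components and 5 with cluster 14 counted as macrophage-like, in place of 3. The classes behind the median differed too. The dendritic-like class was missing at resolution 0.4 and with 20 principal components, and the smooth muscle-like class at resolution 0.4. The dendritic-like class was also missing with mitochondrial UMIs under 10% and with no mitochondrial limit. Endothelial-like cells had 0 with over 500 genes a cell and 2 with 1 CPM added before a ratio, in place of 1. Leaving out 1 library at a time gave 1 to 2 genes in endothelial-like cells (2 without library 1 or library 4). No endothelial-like cell came from library 4, so without it only the median of the other classes changed for them. Macrophage-like cells had 0 to 5 genes (0 without library 4, 5 without library 2) and granulocyte-like cells 2 to 7 (2 without library 2). Cardiomyocyte-like cells had 1 to 2 (1 without library 1), and there were 23 to 30 library spans (23 of 65 pairs without library 4). The log2 fold of Hif1a in macrophage-like cells was 0.96, and leaving out 1 library at a time gave -0.0758 (library 4) to 1.062 (library 2). Egln3 and Slc2a1 in granulocyte-like and Hk2 in fibroblast-like cells stayed at least 2-fold higher under all 20 settings, with log2 folds from 1.38 to 4.98, from 1.16 to 2.71 and from 1.32 to 2.08. Depth limits the low genes: all of the 9 except Ldha and Hif1a rest on fewer than 50 UMIs in B-like cells (323 cells in all), Slc2a1, Pfkfb3, Egln3 and Ankrd37 also in cardiomyocyte-like and Pdk1, Egln3 and Ankrd37 in dendritic-like cells.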
